A study of Homo sapiens with 8 samples.

Results

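The data described here are the mRNA signals of 9 enzymes of serine synthesis and folate one-carbon metabolism in CEM, an established human line of leukaemic T lymphoblasts. The enzymes are PHGDH, PSAT1, PSPH, SHMT1, SHMT2, MTHFD1, MTHFD2, MTHFD1L and ALDH1L2. Every probe set whose annotated gene symbol was exactly one of these names was taken, which gave 23 of the 54675 probe sets on the array. The measured genes with a single symbol number 20307. A pair of groups was compared, each of 4 cultures: CEM cells given an shRNA against ZMIZ1, and CEM cells given a scrambled shRNA as the control. All cultures are of 1 cell line, the design text describes the replicates as biological and unpaired, and the labels name neither a second hairpin nor a rescue, so loss of ZMIZ1 and an off-target effect of the hairpin cannot be told apart. RNA was hybridised to Affymetrix HG-U133 Plus 2.0 arrays, and signals are RMA values on the log2 scale. A lower level in every cell and a lower share of cells with the transcript cannot be told apart in RNA from whole cultures.

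Cells make serine from the glycolytic intermediate phosphoglycerate in a chain of reactions run by PHGDH, PSAT1 and PSPH. Serine hydroxymethyltransferases then turn serine into glycine and pass its side-chain carbon to tetrahydrofolate, in the mitochondrion (SHMT2) or in the cytosol (SHMT1). In the mitochondrion MTHFD2 and MTHFD1L carry that carbon on to formate, which leaves for the cytosol, where MTHFD1 attaches it to folate again for purine and thymidylate synthesis. Dividing leukaemia cells draw heavily on this supply, and antifolate drugs that act on it have long been used against lymphoblastic leukaemia.

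The knockdown was checked first. ZMIZ1, a PIAS-like transcriptional coactivator, had a log2 signal of 9.95 ± 0.14 in knockdown arrays and 11.16 ± 0.06 in control arrays on its brightest probe set 212124_at (SD, n = 4 each), a difference of -1.21 ± 0.08 (SE; limma adjusted p = 0.000109) and 43.2% of the control level. Its 2 other probe sets, 232508_at and 233060_at, averaged 5.29 and 5.18 in knockdown arrays and 5.38 and 5.25 in control arrays. Their differences of -0.10 and -0.07 did not pass. Arrays of one group correlated across probe sets with r from 0.993 to 0.997 in the knockdown group and from 0.992 to 0.997 in the control group. The array's 3 probe sets against 18S rRNA separated the groups, with array means of 9.85 to 12.12 in knockdown cultures and 12.70 to 13.37 in controls. The median signal of an array also separated them, narrowly, with 5.152 to 5.175 in knockdown cultures and 5.177 to 5.205 in controls. Ratios of 3' over 5' control probe sets overlapped between the groups for both GAPDH and ACTB. On the log2 scale GAPDH ran from 0.28 to 0.30 in knockdown arrays and from 0.15 to 0.34 in control arrays. ACTB ran from 1.62 to 2.61 in knockdown arrays (mean 1.95) and from 0.69 to 2.37 in control arrays (mean 1.45). Among controls both ratios were highest in replicate 1 and lowest in replicate 4, and among knockdown arrays both were highest in replicate 3. Their part in the results was not tested. Of 8 T cell markers, CD3D, CD3G, LCK and PTPRC had means of at least 8 in both groups, and CD3E rose by 1.06. The rest lay under 8 in both groups. CD7 averaged 7.47 in knockdown arrays and 7.52 in control arrays, and CD5 averaged 5.87 and 5.70. CD2 was dim (4.12 in knockdown arrays and 4.02 in control arrays). The 4 myeloid markers lay between 3.99 and 4.93, and none of the 3 B cell, 2 erythroid or 2 natural killer markers had a mean of 8 in either group. The erythroid marker HBB rose by 0.44 (adjusted p = 0.00740), with means of 5.97 in knockdown arrays and 5.53 in control arrays, and its part in the results was not tested. EPCAM, an epithelial marker, averaged 8.17 in knockdown arrays and 8.42 in control arrays and did not pass. COL1A1, a stromal marker, averaged 7.67 in knockdown arrays and 7.63 in control arrays and did not pass either.

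Of the 9 enzymes, 5 fell in knockdown cultures, each judged by its brightest probe set (highest average signal across the 8 arrays): PSAT1, PSPH, SHMT2, MTHFD2 and MTHFD1L. Their levels were 67.2% to 73.8% of those in controls, and on these probe sets every knockdown array lay below every control array. PHGDH, SHMT1, MTHFD1 and ALDH1L2 did not pass the test. Across all 20307 genes judged the same way, 5.70% fell and 12.0% rose, and in 8.69% every knockdown array lay below every control array. Among the 3537 genes with a mean of at least 10, a range that holds 8 of the 9 enzymes, 9.33% fell and in 14.4% every knockdown array lay below every control array. The test was limma's moderated test over 54613 probe sets, with Benjamini-Hochberg adjusted p under 0.05 as the threshold.

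**Figure D1:**
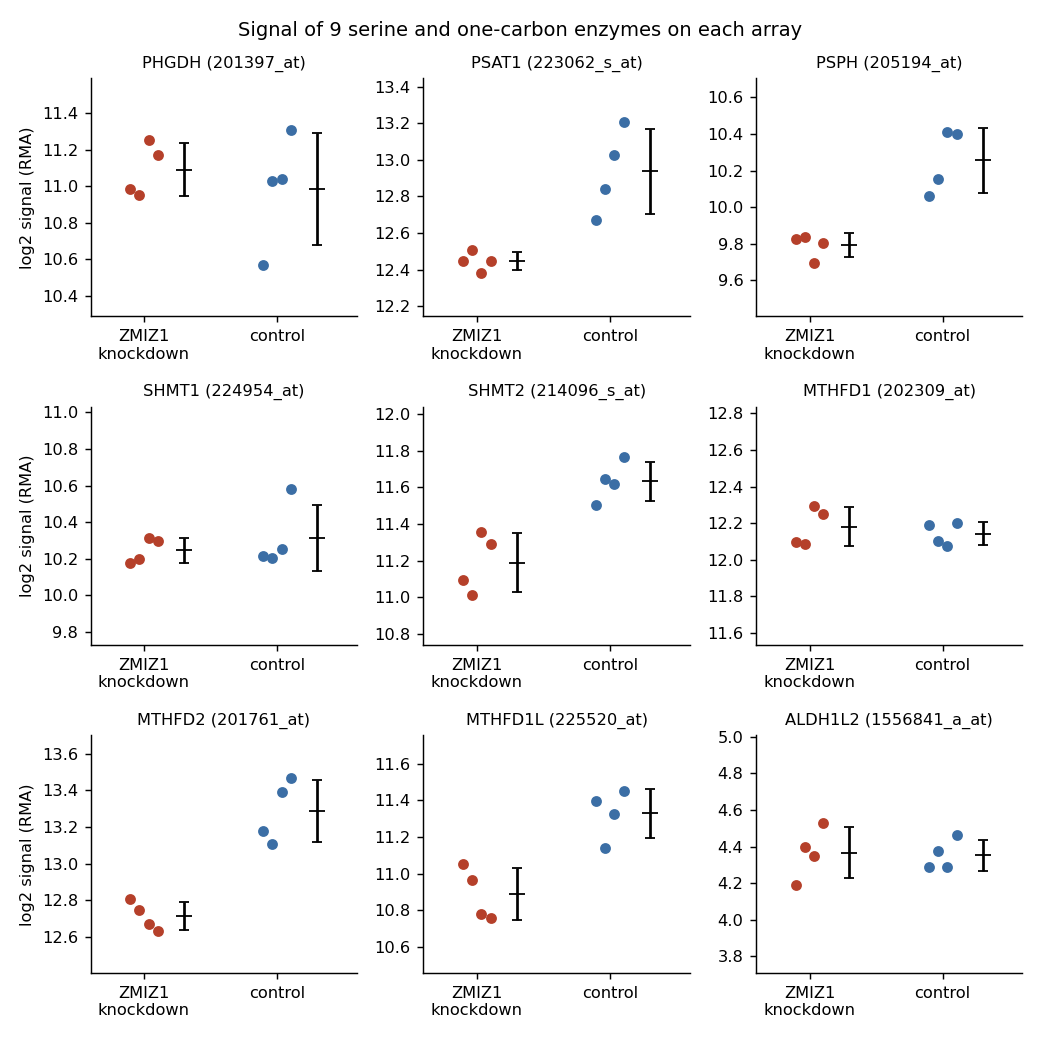
Log2 RMA signal of each enzyme's brightest probe set on each array, with ZMIZ1 knockdown cultures on the left and control cultures on the right of each panel. Points are arrays and bars are the mean ± SD of 4 arrays. Each panel covers the same span of log2 units around its own centre, and the groups are separate for PSAT1, PSPH, SHMT2, MTHFD2 and MTHFD1L and overlap for the other 4.

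Counted by probe set, 8 of the 23 fell and 15 did not pass. Among all 54613 probe sets 5.52% fell and 8.38% rose. None of the 23 rose with limma, where 0 higher probe sets had even an unadjusted p under 0.05, and 0 rose by the methods' t-test. The median difference of the 23 was -0.18, against 0.0076 for all probe sets, and 17 were lower. In 9 of the 23 every knockdown array lay below every control array, against 8.21% of all probe sets.

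**Figure D2:**
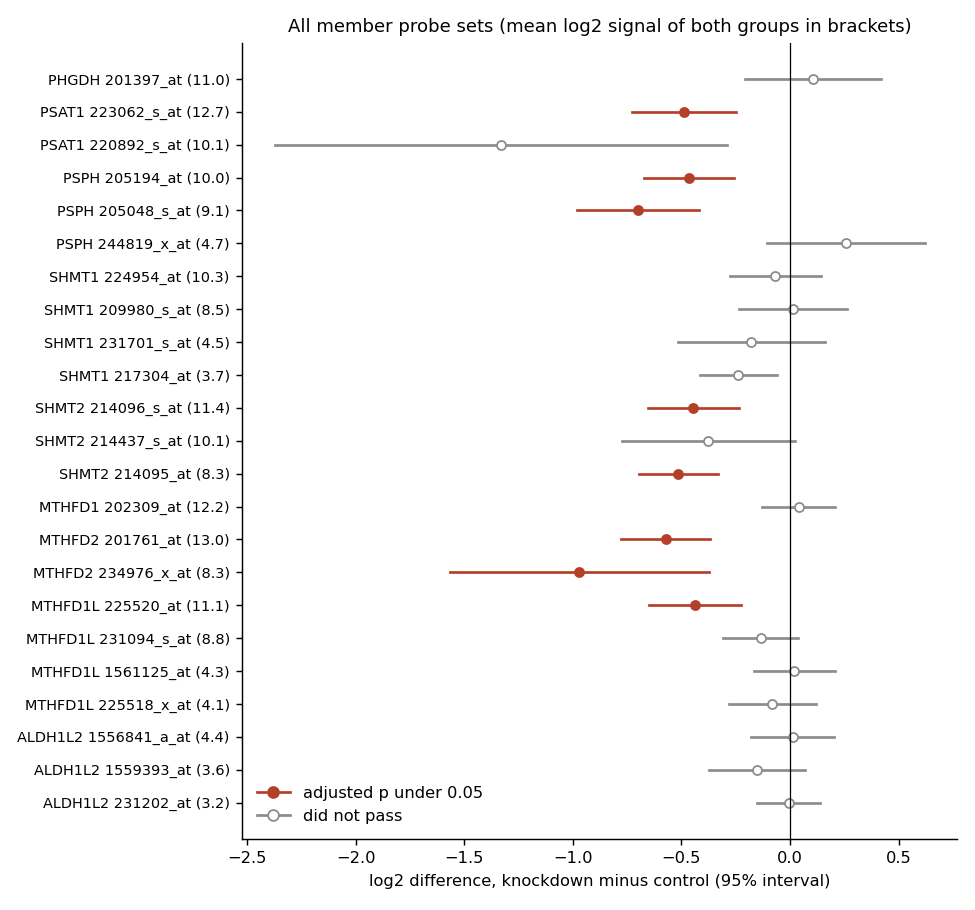
Log2 difference of knockdown minus control cultures with its 95% confidence interval for all 23 probe sets, grouped by gene. Filled red points passed at an adjusted p under 0.05; the number in brackets is the mean log2 signal of both groups. The red points lie between -0.97 and -0.44, and the probe sets with means under 5 lie between -0.24 and 0.26.

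The letters upstream of 4 of these genes are shown because 3 of them fell (PSAT1, MTHFD2 and MTHFD1L) and the other, MTHFD1, is the cytosolic relative that did not pass. Each is the 250 bases before a RefSeq start site on the plus strand of GRCh38.p14. Capitals mark a match, on either strand, to the composite site of the stress factor ATF4 (TGATGNAA) or to the canonical E-box bound by MYC (CACGTG).
PSAT1, chr9:78296875-78297124: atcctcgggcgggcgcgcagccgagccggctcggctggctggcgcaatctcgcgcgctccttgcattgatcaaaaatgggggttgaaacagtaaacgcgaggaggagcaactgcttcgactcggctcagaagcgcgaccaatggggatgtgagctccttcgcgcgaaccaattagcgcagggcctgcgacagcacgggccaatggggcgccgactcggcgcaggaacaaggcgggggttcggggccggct
MTHFD2, chr2:74198365-74198614: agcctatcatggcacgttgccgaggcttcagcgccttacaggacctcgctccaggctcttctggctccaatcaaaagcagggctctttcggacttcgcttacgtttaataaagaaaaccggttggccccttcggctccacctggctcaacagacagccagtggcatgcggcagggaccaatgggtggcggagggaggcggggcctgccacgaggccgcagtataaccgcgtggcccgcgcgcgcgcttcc
MTHFD1L, chr6:150866236-150866485: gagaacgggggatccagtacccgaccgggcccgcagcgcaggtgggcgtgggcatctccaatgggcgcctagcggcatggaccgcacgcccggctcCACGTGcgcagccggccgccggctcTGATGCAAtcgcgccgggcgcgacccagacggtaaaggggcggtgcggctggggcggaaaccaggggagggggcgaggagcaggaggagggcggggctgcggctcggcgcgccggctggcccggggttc
MTHFD1, chr14:64388103-64388352: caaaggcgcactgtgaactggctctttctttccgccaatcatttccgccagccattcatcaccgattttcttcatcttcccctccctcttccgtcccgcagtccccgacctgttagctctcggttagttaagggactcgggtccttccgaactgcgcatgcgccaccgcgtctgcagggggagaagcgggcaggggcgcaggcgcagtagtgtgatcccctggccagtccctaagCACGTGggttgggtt
In the MTHFD1L window both motifs occur, the E-box starting 154 and the ATF4 composite 129 bases before the start site. RefSeq gives MTHFD1L 4 start sites. The windows of 2 of them overlap and hold the same E-box and the same ATF4 composite, and its other windows hold neither motif. Of these others, chr6:150866083-150866332 also overlaps that pair of windows but ends at the first base of the E-box. The remaining one, chr6:151006758-151007007, lies apart. MTHFD1 has an E-box that starts 15 bases before its start site. The ATF4 composite was found in 3.14% and the E-box in 6.34% of all 35116 windows of this length. Of the 6 enzymes with a window, PHGDH, PSAT1, SHMT1 and MTHFD2 have neither string of letters in it, and windows for PSPH, SHMT2 and ALDH1L2 were not analysed here. A match is a string of letters and not a measured binding site.

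In the serine synthesis branch the later steps fell and the first did not pass. PHGDH, the dehydrogenase that commits phosphoglycerate to serine, has 1 probe set, 201397_at. It read 10.99, 10.95, 11.25 and 11.17 in knockdown cultures and 10.57, 11.03, 11.04 and 11.31 in control cultures. The groups overlapped, control replicate 1 being the lowest of all arrays. The difference was 0.10 ± 0.14 (SE; adjusted p = 0.689), with a 95% interval of -0.21 to 0.42, and without control replicate 1 it was -0.03.

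PSAT1, the aminotransferase of the middle step, fell to 71.2% of the control level. On 223062_s_at it read 12.45, 12.51, 12.38 and 12.45 in knockdown cultures and 12.67, 12.84, 13.03 and 13.21 in controls. The knockdown values were tightly grouped (SD 0.051) while the controls were spread out (SD 0.23). The difference was -0.49 ± 0.11 (SE; adjusted p = 0.0141). The other PSAT1 probe set, 220892_s_at, read 9.63, 9.69, 8.92 and 9.49 in knockdown cultures and 9.58, 10.30, 10.79 and 12.38 in controls. Control replicate 4 was far above the rest there, and control replicate 1 lay within the knockdown range. Its difference of -1.33 ± 0.47 did not pass (adjusted p = 0.0887) but passed without control replicate 1 (-1.73, adjusted p = 0.0283) and with array weights (-1.30, adjusted p = 0.0289), and without control replicate 4 it was -0.79.

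PSPH, the phosphatase that releases serine, fell on both of its bright probe sets. On 205194_at the knockdown cultures read 9.83, 9.84, 9.70 and 9.81 and the controls 10.06, 10.16, 10.41 and 10.40. That is a difference of -0.46 ± 0.09 (adjusted p = 0.00961), with no overlap. On 205048_s_at the readings were 8.72, 8.84, 8.47 and 8.86 in knockdown cultures and 9.15, 9.33, 9.51 and 9.70 in controls, a difference of -0.70 ± 0.13 (adjusted p = 0.00592). The dim probe set 244819_x_at had means of 4.82 in knockdown arrays and 4.56 in control arrays and did not pass (adjusted p = 0.352).

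Of the hydroxymethyltransferases, the mitochondrial one passed the test and the cytosolic one did not. SHMT2, the mitochondrial enzyme, read 11.09, 11.01, 11.35 and 11.29 in knockdown cultures and 11.51, 11.65, 11.62 and 11.77 in controls on 214096_s_at. All knockdown arrays were below all controls, and the difference was -0.45 ± 0.09 (SE; adjusted p = 0.0121). On 214095_at SHMT2 read 8.0, 7.96, 8.25 and 8.11 in knockdown cultures and 8.58, 8.55, 8.69 and 8.56 in controls, a difference of -0.52 ± 0.08 (adjusted p = 0.00326). Its remaining probe set, 214437_s_at, had a difference of -0.38 ± 0.18 with overlapping groups and did not pass (adjusted p = 0.207).

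SHMT1, the cytosolic enzyme, read 10.18, 10.20, 10.31 and 10.30 in knockdown cultures and 10.21, 10.21, 10.26 and 10.58 in controls on its brightest probe set 224954_at. The groups overlapped, and control replicate 4 stood above the others. The difference of -0.07 ± 0.09 did not pass (adjusted p = 0.696), and its 95% interval ran from -0.28 to 0.14. On 209980_s_at the difference was 0.01 (adjusted p = 0.957). The 2 dim SHMT1 probe sets had differences of -0.18 and -0.24; on the second, 217304_at, the knockdown arrays lay just below the controls (highest 3.65 in knockdown arrays, lowest 3.66 in control arrays), and it did not pass (adjusted p = 0.0745). It passed without control replicate 4 (-0.28, adjusted p = 0.0490) and with array weights (-0.28, adjusted p = 0.0263).

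Among the enzymes that carry the folate-bound carbon, MTHFD2 had the largest fall of a brightest probe set. MTHFD2 is the mitochondrial dehydrogenase and cyclohydrolase, high in embryonic and transformed cells. On 201761_at it read 12.81, 12.74, 12.67 and 12.63 in knockdown cultures and 13.18, 13.11, 13.39 and 13.47 in controls. Every knockdown array lay below every control array, and the difference was -0.57 ± 0.09 (SE; adjusted p = 0.00346), or 67.2% of the control level. The other MTHFD2 probe set, 234976_x_at, is of a cross-hybridisation-prone kind. On it MTHFD2 read 7.84, 7.89, 7.58 and 7.77 in knockdown cultures and 8.36, 8.16, 8.75 and 9.69 in controls. This probe set fell by 0.97 on the log2 scale (adjusted p = 0.0373) and did not overlap, but control replicate 4 was well above the other controls, and without it the difference was -0.65. The call on 234976_x_at was lost in 5 of the 8 fits with 1 array left out, those without control replicate 3 or any 1 of the knockdown replicates (adjusted p from 0.0633 to 0.10).

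MTHFD1L, the mitochondrial ligase that releases formate, fell on its brightest probe set 225520_at. It read 11.05, 10.96, 10.78 and 10.76 in knockdown cultures and 11.40, 11.14, 11.33 and 11.45 in controls, a difference of -0.44 ± 0.10 (SE; adjusted p = 0.0135). On 231094_s_at the readings of the groups overlapped (8.60 to 8.88 in knockdown cultures and 8.79 to 8.91 in controls), and the difference of -0.14 did not pass (adjusted p = 0.294). The 2 other MTHFD1L probe sets had means of 4.04 to 4.33 and differences of 0.02 and -0.08. With the mean of all 4 probe sets, MTHFD1L had a difference of -0.16 that did not pass (adjusted p = 0.0789 over genes).

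MTHFD1, the cytosolic enzyme that joins synthetase, cyclohydrolase and dehydrogenase activities in a single protein, read 12.10, 12.09, 12.30 and 12.25 in knockdown cultures and 12.19, 12.10, 12.08 and 12.20 in controls. The ranges overlapped in part, with knockdown replicates 3 and 4 above every control, and the difference was 0.04 ± 0.08 (adjusted p = 0.793; 95% interval -0.13 to 0.21). ALDH1L2, the mitochondrial enzyme that oxidises formyl-tetrahydrofolate to carbon dioxide, was dim on all 3 of its probe sets. Its values lay between 3.13 and 4.53 in knockdown cultures and between 3.19 and 4.46 in controls. By comparison, the median signal of an array was 5.152 to 5.175 in knockdown cultures and 5.177 to 5.205 in controls. The groups overlapped on each ALDH1L2 probe set, and none of the 3 passed (adjusted p from 0.363 to 0.961).

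The mitochondrial enzymes were then set against their cytosolic relatives as the difference of 2 log2 signals on the same array, which shows unequal change and sets no level of one probe set against another. SHMT2 minus SHMT1 was 0.94 ± 0.10 in knockdown cultures and 1.32 ± 0.11 in controls (SD, n = 4 each), a change of -0.38 with a 95% interval of -0.56 to -0.19. MTHFD2 minus MTHFD1 was 0.53 ± 0.18 in knockdown cultures and 1.14 ± 0.17 in controls, a change of -0.61 (interval -0.86 to -0.37). MTHFD1L minus MTHFD1 was -1.29 ± 0.24 in knockdown cultures and -0.81 ± 0.10 in controls, a change of -0.48 (interval -0.74 to -0.22). These intervals come from a limma fit added after seeing the data. It placed the pair differences beside all tested probe sets, so their variances were moderated towards those of single probe sets. In each of these 3 pairs all 4 knockdown arrays lay below all 4 control arrays. SHMT2, MTHFD2 and MTHFD1L were already separated in this way on the same probe sets, as were 8.69% of all genes. The separation of the pairs is therefore not independent of those falls, and its share among other gene pairs was not examined. The exact two-sided permutation p was 0.0286 for each, also after Benjamini-Hochberg adjustment over the 3 pairs, and is the smallest that 70 assignments can give. The last 2 comparisons share MTHFD1. With the mean of all probe sets of each gene in place of the brightest, the changes were -0.33, -0.81 and -0.20 in the same order, with an adjusted exact p of 0.0571 for each.

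**Figure D3:**
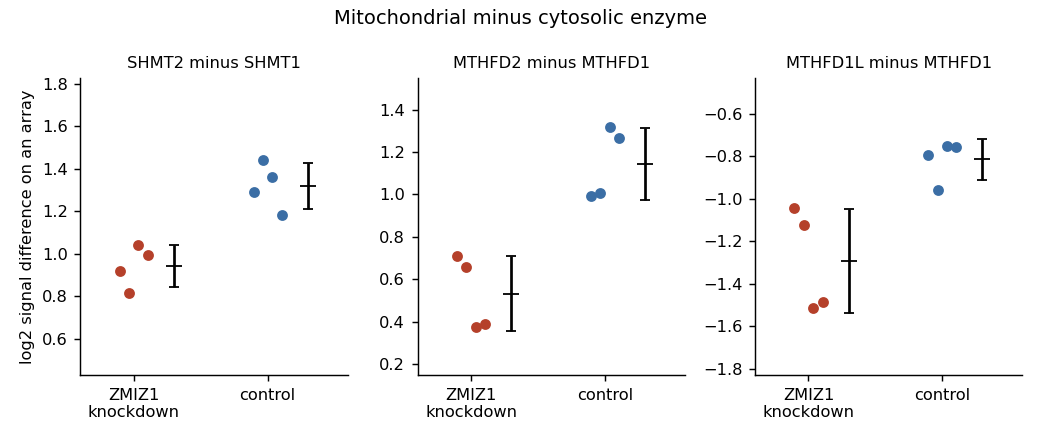
Difference of log2 signals between a mitochondrial enzyme and its cytosolic relative on each array, with knockdown cultures on the left and controls on the right of each panel. Points are arrays and bars are the mean ± SD of 4 arrays; in all 3 panels every knockdown array lies below every control array.

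The 18S control signal moved with the groups and, within them, with several of these enzymes. In the knockdown group, replicates 3 and 4 had the lower 18S signals (9.85 and 10.21, against 12.12 and 11.67 in replicates 1 and 2). By brightest probe set, they had the lower PSAT1, PSPH, MTHFD2 and MTHFD1L signals and the higher PHGDH, SHMT1, SHMT2 and MTHFD1 signals. For PSAT1 the gap was small (12.447 in replicate 4, against 12.449 in replicate 1). Among controls, replicate 4 had the lowest 18S signal (12.70) and the highest PHGDH, PSAT1, SHMT1, SHMT2, MTHFD1, MTHFD2 and MTHFD1L signals. For PSAT1, MTHFD2 and MTHFD1L, low 18S thus went with low signals in knockdown cultures but with the highest signal among controls. For PHGDH, SHMT1, SHMT2 and MTHFD1 it went with the higher signals in knockdown cultures and also with the highest signal among controls. A fit with the 18S signal as a covariate takes a single slope for both groups. With the 18S signal as a covariate, 0 of the 23 probe sets passed in limma, where 7 lower ones had an unadjusted p under 0.05; only 0.0879% of all probe sets passed in that fit. The 8 differences then ran from -1.07 to -0.22, and their median standard error was 0.174, against 0.0954 without the covariate. MTHFD1L shrank most, to -0.22 ± 0.16, and SHMT2 grew to -0.76 ± 0.13 on 214096_s_at (adjusted p = 0.0715). MTHFD1L minus MTHFD1 was -0.06 in that fit. With knockdown replicates 1 and 2 alone against all controls, 2 of the 23 passed, both of SHMT2 (-0.58, adjusted p = 0.0243, and -0.62, adjusted p = 0.0158), and 1.33% of all probe sets fell. What part the 18S signal had in these results was not tested.

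**Figure D4:**
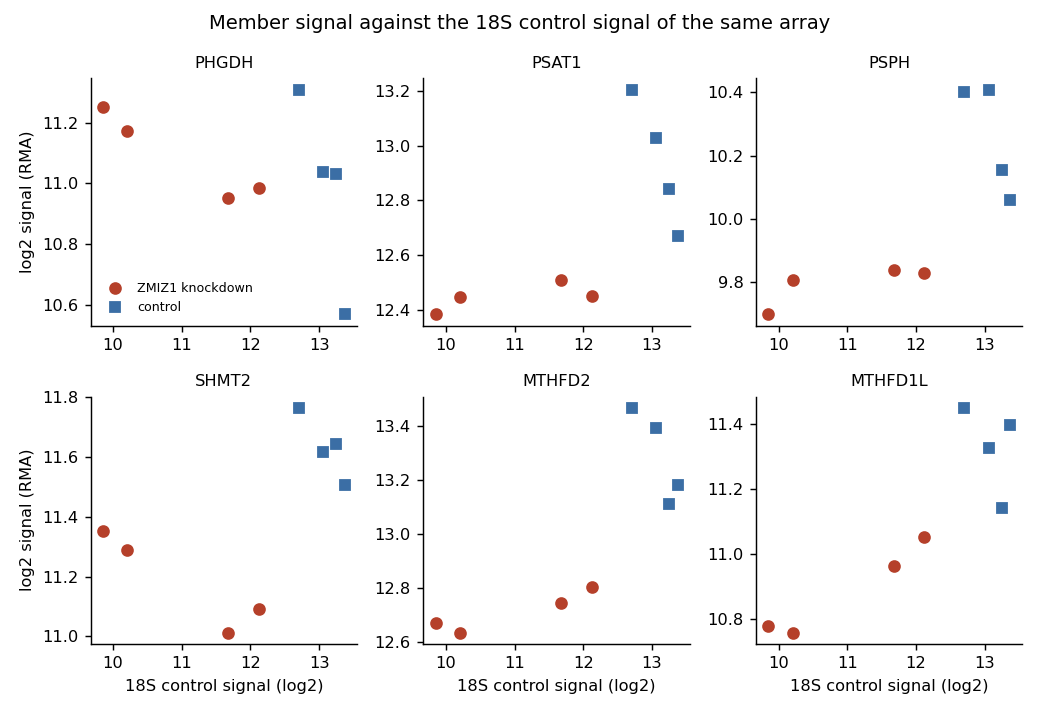
Log2 RMA signal of 6 enzymes against the mean log2 signal of the 18S control probe sets on the same array. Red circles are knockdown arrays and blue squares control arrays; the 18S signal is at most 12.12 in knockdown arrays and at least 12.70 in control arrays, so the groups share no range of it.

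In the authors' deposited table, 7 of the 23 probe sets met their limits of an unadjusted p under 0.01 and a ratio past 1.3-fold, and all 7 were lower. These were 1 each of PSAT1, MTHFD2 and MTHFD1L and 2 each of PSPH and SHMT2. Of all probe sets, 7.28% met these limits and 2.50% did so as lower. After Benjamini-Hochberg adjustment the methods' t-test called 4 of the 23: both PSPH probe sets, 214095_at of SHMT2 and 201761_at of MTHFD2. It lost the calls on 214096_s_at of SHMT2 (adjusted p = 0.0502), 225520_at of MTHFD1L (adjusted p = 0.0542), 223062_s_at of PSAT1 (adjusted p = 0.0653) and 234976_x_at of MTHFD2 (adjusted p = 0.154). Of all probe sets, 2.47% fell by that test.

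Of 39 other genes of serine, folate and methionine metabolism, 1 fell, 1 rose and 37 did not pass, against 5.70% that fell and 12.0% that rose among all genes. Their median difference was -0.07, against -0.44 for the 9 enzymes and 0.03 for all genes. The 9 enzymes and this list were chosen with earlier results of these data known, so the contrast is a description. GART, a purine synthesis enzyme that uses formyl-tetrahydrofolate, read 10.71, 10.68, 10.68 and 10.71 in knockdown cultures and 11.06, 10.93, 11.01 and 11.22 in controls. It fell by 0.36 on the log2 scale (adjusted p = 0.0119), without overlap. FTCD, a folate enzyme of histidine breakdown that is best known from liver, read 7.18 to 7.44 in knockdown cultures and 6.83 to 6.97 in controls on the cross-hybridisation-prone probe set 224299_x_at. It rose by 0.38 (adjusted p = 0.0108).

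In the other roles limma called none of the genes, and the gene with the smallest p is named for each. SDS, a serine dehydratase, had a difference of -0.21 (adjusted p = 0.0874). It was listed under serine and glycine supply, a role that holds enzymes consuming serine (SDS, SDSL and SRR) as well as transporters. All 6 genes listed there had a difference below 0, as had 8893 of all 20307 genes. FOLR2, a folate receptor, had one of -0.27 (adjusted p = 0.0738), and of 7 genes of folate uptake and retention 3 were lower and 4 higher. DLD, a subunit of the glycine cleavage system, had a difference of -0.17 (adjusted p = 0.362). AHCY, which clears the product of methylation reactions, had one of -0.13 (adjusted p = 0.227), CTH of transsulfuration -0.31 (adjusted p = 0.451) and SARDH, which oxidises sarcosine, 0.33 (adjusted p = 0.0644). An unadjusted p under 0.05 was reached by 8 of the 39 genes in limma and by 11 in the methods' t-test, against 6650 of all 20307 genes in limma.

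**Figure D5:**
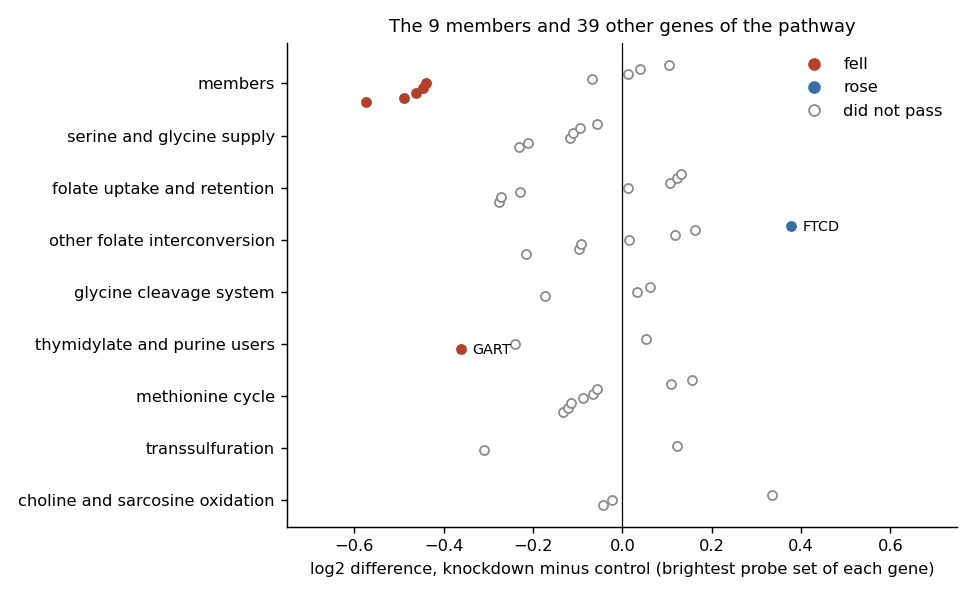
Log2 difference of knockdown minus control cultures for the brightest probe set of each of the 9 enzymes (top row) and of 39 other genes of the pathway, by role. Red points fell, blue points rose and open points did not pass; 5 of the 9 enzymes are red, while GART and FTCD are the coloured points among the other genes.

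Factors known to activate these enzymes were measured on the same arrays. ATF4, the amino acid stress factor known to induce PHGDH, PSAT1, SHMT2 and MTHFD2, read 12.98, 13.02, 13.05 and 13.10 in knockdown cultures and 12.99, 13.24, 13.37 and 13.53 in controls. Only control replicate 1 lay within the knockdown range, and the difference of -0.24 did not pass (adjusted p = 0.163). MYC, which also drives serine and one-carbon genes, read 11.98, 11.89, 11.50 and 11.72 in knockdown cultures and 12.65, 12.55, 12.67 and 12.65 in controls, a fall to 55.2% of the control level (difference -0.86 ± 0.10, adjusted p = 0.000966). NFE2L2, a redox factor, had a difference of -0.01 (adjusted p = 0.967). Protein levels were not measured.

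The genes closest in pattern were found by centring each log2 profile over the 8 arrays and taking the root mean square distance, over 11096 other genes with a mean of at least 6. PSAT1 was nearest to ALCAM (0.047), VAV3 (0.047) and ST3GAL5 (0.050), and its nearest relative among the 9 enzymes was PSPH (0.058), with 6 genes closer. MTHFD2 was nearest to TOR3A, FKBP5 and PROSER1 (listed as C13orf23), all at 0.056 to 0.057. PSPH was again the nearest enzyme (0.084), with 24 genes closer. SHMT2 was nearest to MAP4 (0.055), ATXN2 (0.064) and CAV1 (0.071), and 297 genes were closer to it than PSPH was (0.15). PHGDH was nearest to PLOD1 (0.047), MRPL10 (0.069) and IFNGR2 (0.071), none of which passed the test. The enzyme nearest to PHGDH was SHMT1 (0.17), with 635 genes closer. The flat, dim profile of ALDH1L2 was nearest to PRF1, C16orf86 and DYSF (0.033 to 0.045), while its own distance from a flat line was 0.10. These distances are descriptions of 8 arrays in which genes share both the group difference and the array.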

How the data were processed

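The authors deposited log2 values per probe set, made with RMA per the submitters' processing notes. For RMA's version and a genome build, nothing is given in the sources used here. Per the file headers, the authors' workbook adds group means, each probe set's unadjusted t-test p-value and its knockdown over control ratio to those log2 values. Workbook and series matrix differ by at most 5.0e-09.

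The 62 manufacturer control probe sets were left out. The two-sided moderated test of limma 3.58.1 (R 4.3.3; lmFit, then eBayes, with no block) was fitted to all 54613 others, with Benjamini-Hochberg adjustment over all of them, and member values were read from that fit. The brightest probe set of each gene was the one with the highest mean over all 8 arrays. Arrays give no counts, so 4 arrays per group limit the precision. The fit was tested on simulated data.

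Members matched the annotation by exact symbol, all 9 also by gene ID to RefSeq, which supplied the promoter windows (GRCh38.p14). RefSeq names pseudogenes of PSAT1 (4), MTHFD2 (7), PSPH, SHMT1 and MTHFD1 (1 each), whose transcripts these probe sets might not tell apart. Named were all members, ZMIZ1, the regulators, up to 4 called genes (or that with the smallest p) per role, and the 3 nearest profiles of 5 members. Members, lists and tests were chosen with earlier results of these data known. Of 40 list genes besides the 3 regulators, GCSH had no probe set of its own symbol and was not analysed here. Same-numbered arrays deviated together with r from -0.09 to 0.06, so the numbers do not pair them.

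Alternatives were the 18S covariate, the replicate block, median centring, a mean-variance trend, array weights, the methods' t-test, removal of dim probe sets, knockdown replicates 1 and 2 only, the series matrix, gene means and each array left out. The limma fit of the pair differences was added after seeing the data.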

Additional observations from a re-analysis of the deposited data

Results flagged for a closer look

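Of 88 groups of 4 values examined, 3 held an array far from the other 3, by the gap to its nearest neighbour over the group's range (Dixon's 95% limit); about 1 group in 20 is picked out this way by chance. SHMT1 on 224954_at read 10.58 in control replicate 4, against 10.21 to 10.26 in the other controls. SHMT1 on the dim probe set 217304_at read 3.66 in the same array, against 3.83 in each of the others. The median of all probe sets was 5.18 in knockdown replicate 1 and 5.15 to 5.16 in the other knockdown arrays.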

How the results depend on the processing

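Of the 8 called member probe sets, 7 passed whichever single array was left out, the exception being 234976_x_at of MTHFD2. The number of called member probe sets was 7 to 9 over these fits, 10 with array weights, 4 with the methods' t-test, 2 with knockdown replicates 1 and 2 only and 0 with the 18S covariate (7 at an unadjusted p under 0.05); for genes it was 5, 5, 2, 1 and 0, and 4 with gene means. Called pathway list genes numbered 2 to 3 with an array left out, 4 with array weights, 4 without probe sets of a mean under 5, and 0 both with knockdown replicates 1 and 2 only and with the 18S covariate (6 and 4 at an unadjusted p under 0.05 in limma). Fewer samples, or a covariate that separates the groups, enter the last 2 fits. The share of all probe sets that fell also moved. It was 5.52% in the main fit, 2.99% to 5.65% with an array left out and 8.56% with array weights. With the methods' t-test it was 2.47%, with knockdown replicates 1 and 2 only 1.33% and with the 18S covariate 0.0330%. Without probe sets of a mean under 5, 27.0% of the remaining 28880 were called, against 13.9% in the main fit. With the replicate block the counts stayed at 8, 5 and 2 and ZMIZ1 at -1.21, and the block changed no other call. The 3 pair changes with that block were -0.38, -0.61 and -0.48. With the 18S covariate SHMT2 minus SHMT1 was -0.49 (limma adjusted p = 0.0245), MTHFD2 minus MTHFD1 was -0.36 and MTHFD1L minus MTHFD1 was -0.062 (limma adjusted p = 0.118 and 0.690); gene means gave -0.33, -0.81 and -0.20 for SHMT2 minus SHMT1, MTHFD2 minus MTHFD1 and MTHFD1L minus MTHFD1. The cause was not tested. Differences that did not pass changed sign in some fits. With the 18S covariate they were -0.28 for PHGDH, -0.17 for 209980_s_at of SHMT1, -0.16 for MTHFD1, -0.017 and 0.14 for 1561125_at and 225518_x_at of MTHFD1L, and -0.17 and 0.092 for 1556841_a_at and 231202_at of ALDH1L2. With knockdown replicates 1 and 2 only, the values were -0.0175 for PHGDH, -0.027 for 209980_s_at of SHMT1, -0.051 for MTHFD1, -0.026 for 1561125_at of MTHFD1L, and -0.059 and 0.036 for those 2 ALDH1L2 probe sets. Median centring gave 0.024 for 231202_at of ALDH1L2. With an array left out, PHGDH ranged from -0.035 to 0.21, SHMT1 from -0.052 to 0.13 on 209980_s_at and from -0.10 to 0.021 on 224954_at, 1561125_at of MTHFD1L from -0.017 to 0.077, and the 2 ALDH1L2 probe sets from -0.041 to 0.072 and from -0.024 to 0.024.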

Other observations

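CTH, the transsulfuration enzyme that makes cysteine, split the control cultures. It read 6.52, 6.82, 6.63 and 6.63 in knockdown cultures and 6.44, 6.45, 7.40 and 7.56 in controls, so that control replicates 1 and 2 lay below all knockdown arrays and control replicates 3 and 4 above them. The same 2 control arrays, replicates 3 and 4, held the highest control signals of PSAT1, PSPH, MTHFD2 and ATF4. SDS and FOLR2, which did not pass, nevertheless had every knockdown array below every control array (6.38 to 6.53 in knockdown arrays and 6.58 to 6.8 in control arrays for SDS, 6.10 to 6.42 in knockdown arrays and 6.43 to 6.65 in control arrays for FOLR2), as did 6 of the 39 pathway genes in all, against 8.69% of all genes.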
